A study of Mus musculus with 7 samples.

Results

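The genes described here encode subunits of the high-voltage-activated calcium channels. They are 10 genes of the 55367 in the deposited count table, taken by symbol: the pore genes Cacna1a, Cacna1b, Cacna1c, Cacna1d and Cacna1e, the alpha2delta genes Cacna2d1, Cacna2d2 and Cacna2d3, and the beta genes Cacnb3 and Cacnb4. All 10 passed the filter on low counts. The samples were RNA-seq libraries of brain from C57BL/6J mice labelled P90, 4 labelled CRS and 3 labelled noCRS, and the title of the series names chronic stress, depression and this circuit. The RNA is labelled as coming from neurons of the medial prefrontal cortex (mPFC) that project to the lateral habenula. No genotype, transgene or sex is given in the labels used here. They do not state that the libraries came from different animals either, and the p-values therefore speak only of the spread among these 7 libraries, part or all of which may be technical.

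High-voltage-activated calcium channels open when a neuron depolarises strongly and let calcium in. Each has an alpha1 subunit that forms the pore and sets the channel type: Cacna1c and Cacna1d encode the L-type channels Cav1.2 and Cav1.3, which couple activity to gene transcription, Cacna1a and Cacna1b the P/Q-type and N-type channels that trigger transmitter release, and Cacna1e the R-type channel Cav2.3, found in dendrites, spines and terminals. Beta subunits bind the pore inside the cell and help bring it to the membrane, and the alpha2delta proteins sit on the outside, promote trafficking of the channel and include the targets of gabapentin.

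Cacna1e was the 1 gene of the 10 whose groups did not overlap, about the share found over the whole table (10.1%, CRS higher). It measured 33.5 ± 3.89 CPM in CRS (SD, n = 4; counts scaled to library size with TMM factors) and 8.27 ± 5.63 CPM in noCRS (SD, n = 3), a ratio of 4.05, and it was the most abundant pore transcript per exon length in 4 of 4 CRS libraries and in 0 of 3 noCRS libraries. It was short of the threshold in edgeR's quasi-likelihood test (adjusted p = 0.1003) and past it by DESeq2 (adjusted p = 0.00161) and limma-voom (adjusted p = 0.0347). Cacna2d1 averaged 2.03 times as much in CRS, with an overlap between the groups. The other pore genes, Cacna2d2 and Cacna2d3 overlapped widely, and Cacna1c and Cacna1d in particular varied more between libraries of a group than between the groups.

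By edgeR, 0 of the 10 genes passed an adjusted p of 0.05, and 2 had an unadjusted p below 0.05, Cacna1e and Cacna2d1. DESeq2 and limma-voom each called 1, Cacna1e. The same rules took 2.3% of the 17833 tested genes by edgeR, 13.6% at an unadjusted p below 0.05 and 3.58% by limma-voom. For DESeq2 the share was 6.36% of the 25636 genes with a p-value. That base includes genes left without an adjusted p, which could not be called. Among genes with a DESeq2 adjusted p, as all 10 subunit genes had, the share was therefore higher. Groups did not overlap, with CRS higher, for 1 of the 10 genes and for 10.1% of all tested genes. Fold changes were above 0 for 5 of the 10, and their median log2 fold change was 0.31, against -0.02 over all tested genes. Over all genes edgeR called 369 higher and 41 lower in CRS, and 248 higher and 64 lower without TMM factors, where the median over all tested genes shifted by -0.156 (log2). No subunit gene changed sign under any of the 3 other scalings.

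**Figure D1:**
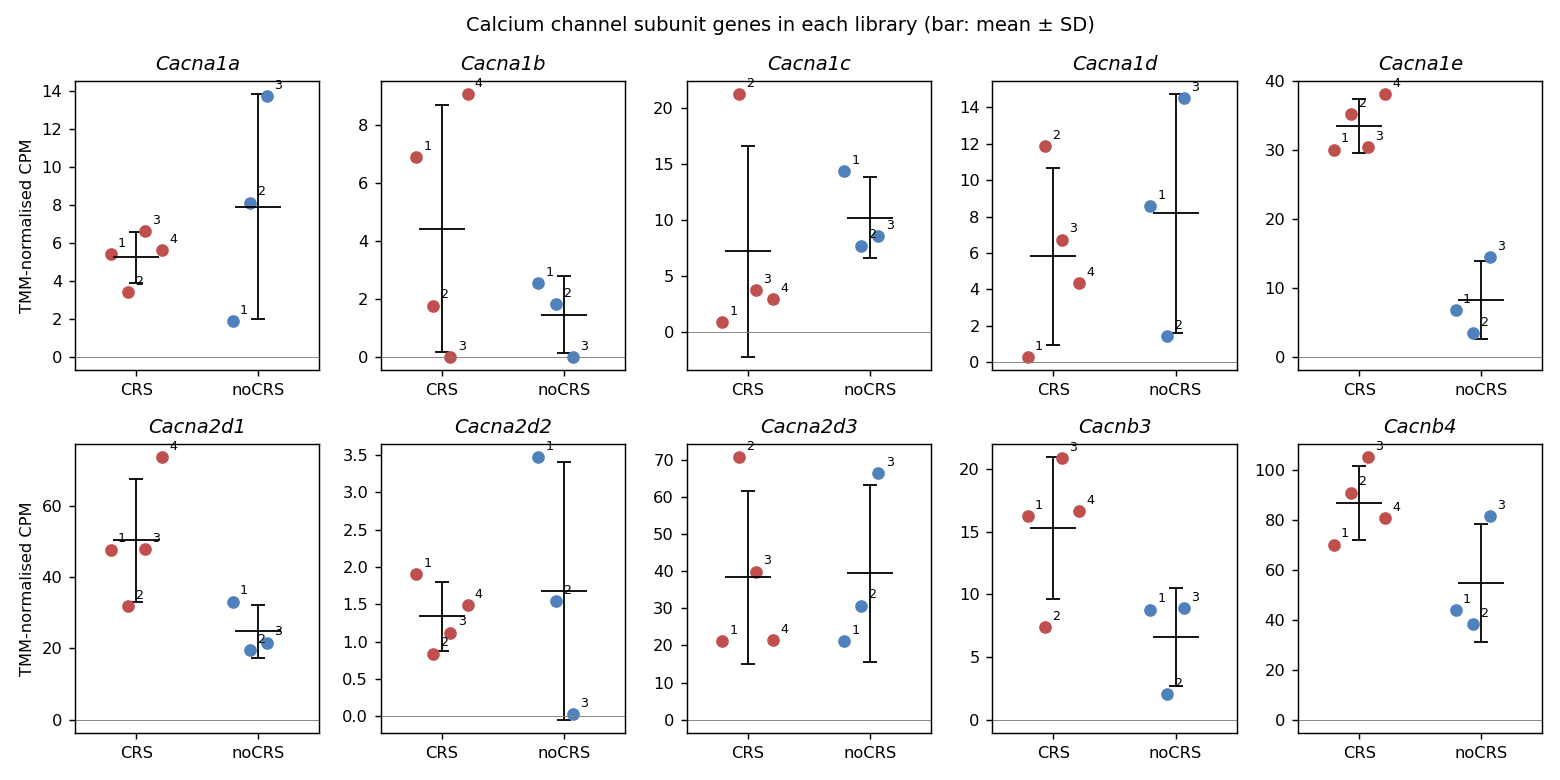
TMM-normalised CPM (vertical axis) of each subunit gene in the 4 CRS libraries (red) and the 3 noCRS libraries (blue), with replicate numbers beside the points and bars for the mean ± SD. The Cacna1e points lie between 30.1 and 38.1 CPM in CRS and between 3.50 and 14.5 CPM in noCRS, and the points of the other genes overlap.

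The libraries held 28677703 to 39965667 counts, and 3 counts in a library, taken as the floor, stood for 0.0724 to 0.0990 CPM. Markers of the labelled cells were not equally present. The excitatory cortical neuron list (7 genes) summed to 491 to 740.0 CPM in CRS and 20.2 to 39.3 CPM in noCRS, and edgeR called 3 of the 7 higher in CRS. Its defining gene Slc17a7, the cortical vesicular glutamate transporter, had 217 to 447 counts in CRS libraries but 25, 0 and 0 counts in noCRS libraries (edgeR adjusted p = 0.188). Camk2a of this list overlapped between the groups, at 15.5 ± 6.86 CPM in CRS and 7.20 ± 5.62 CPM in noCRS (edgeR adjusted p = 0.589). The 7 genes shared by all neurons summed to 3031 to 4291 CPM in CRS and 464.5 to 537 CPM in noCRS. Most of that sum in CRS was Snap25 (2747 ± 611 CPM in CRS and 158 ± 57.7 CPM in noCRS), while Map2 of the same list measured 175 ± 53.7 CPM in CRS and 186 ± 19.0 CPM in noCRS (log2 fold change -0.08; edgeR adjusted p = 0.945). Of these 7 genes edgeR called 3 higher in CRS, Snap25, Syt1 and Stmn2 (adjusted p = 0.00127, 0.00394 and 0.00241). Stmn2 measured 167 ± 47.8 CPM in CRS and 18.8 ± 3.58 CPM in noCRS. Rbfox3 (mean 31.02 CPM in CRS and 1.81 CPM in noCRS) did not overlap between the groups. Neither did Elavl4 (186 ± 39.0 CPM in CRS and 110 ± 1.95 CPM in noCRS). Both were short of the threshold (edgeR adjusted p = 0.109 and 0.103). Tubb3 overlapped, at 68.9 ± 51.3 CPM in CRS and 22.0 ± 10.2 CPM in noCRS (edgeR adjusted p = 0.265). Both groups held glial RNA, with the 6 oligodendrocyte genes at 25710 to 50550 CPM in CRS and 31260 to 36150 CPM in noCRS, and the 7 astrocyte genes at 4576 to 9706 CPM in CRS and 8263 to 9442 CPM in noCRS. The 6 oligodendrocyte precursor genes summed to 999 to 1407 CPM in CRS and 1792 to 2127 CPM in noCRS, and edgeR called 3 of them lower in CRS. Pdgfra, the largest part of the sum, alone of the 6 overlapped between the groups. It measured 764 ± 219 CPM in CRS and 911 ± 236 CPM in noCRS (edgeR adjusted p = 0.823). The 6 inhibitory neuron genes summed to 150 to 661 CPM in CRS and 34.6 to 37.5 CPM in noCRS. Sst (168 ± 156 CPM in CRS and 2.54 ± 0.29 CPM in noCRS) did not overlap between the groups. Neither did Gad1 (97.4 ± 43.1 CPM in CRS and 25.7 ± 4.08 CPM in noCRS) or Vip (46.4 ± 32.9 CPM in CRS and 1.93 ± 3.34 CPM in noCRS). Sst and Gad1 were called by edgeR (adjusted p = 0.00928 and 0.0299), and Vip was not (adjusted p = 0.300). Slc32a1 had 0, 0, 4 and 4 counts in CRS and 0 counts in noCRS, and Gad2 and Pvalb overlapped between the groups. The 6 microglial genes stayed at 0.936 to 18.9 CPM in CRS and 6.85 to 24.3 CPM in noCRS, with Tmem119 at 0 counts in noCRS, and the 6 endothelial and mural genes at 128 to 528 CPM in CRS and 58.5 to 186 CPM in noCRS. The neuronal and oligodendrocyte precursor sums did not overlap between the groups and the sums of the other 4 lists did, and their part in the subunit, partner and modulator values below was not tested. In bulk RNA, fewer cells of a type and less RNA per cell cannot be told apart. CRS replicate 2 lay far from the other libraries on the leading principal component (30.4% of the variance), at 235.9. The groups did not overlap along it either, with the other CRS libraries at -10.98 to 45.66 and the noCRS libraries at -104.3 to -87.04.

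Among the pore genes, Cacna1e (GRCm38 chromosome 1, 154390731 to 154884501) had 30.1, 35.3, 30.4 and 38.1 CPM in CRS replicates 1 to 4, against 6.83, 3.50 and 14.5 CPM in noCRS replicates 1 to 3. The lowest CRS library was above the highest noCRS library, and the CRS libraries lay close together while the noCRS libraries spread over a wider relative range. The counts behind these values were 921 to 1462 in CRS and 109 to 470 in noCRS, far above the floor. The log2 fold change was 2.02 ± 0.52 (SE; 95% interval 0.84 to 3.19). The highest noCRS value came from replicate 3, and without it the noCRS mean was 5.16 CPM and the edgeR adjusted p 0.0553. Over the 14 other tests, scalings, filters and left-out libraries the adjusted p of edgeR, DESeq2 or limma-voom ran from 0.00161 to 0.262, and the log2 fold change from 1.65 to 2.70. No exon base of Cacna1e is shared with another gene of the table.

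**Figure D2:**
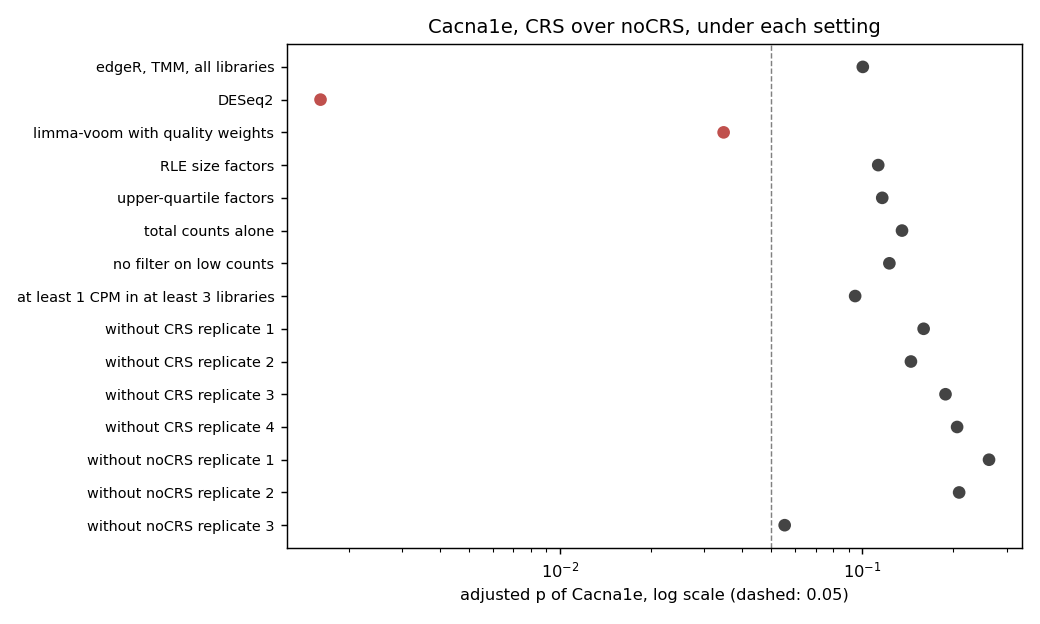
Adjusted p of Cacna1e for CRS over noCRS (horizontal log axis, dashed line at 0.05) under each test, scaling, filter and left-out library (rows), with red points under the threshold. DESeq2 (0.00161) and limma-voom (0.0347) are the settings below the line, and edgeR's values lie between 0.0553 and 0.262.

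Cacna1a, the P/Q-type pore (chromosome 8, 84338639 to 84640246), had 5.41, 3.40, 6.60 and 5.60 CPM in CRS, against 1.91, 8.12 and 13.7 CPM in noCRS. All 4 CRS values fell inside the noCRS range. The log2 fold change was -0.59 (95% interval -2.39 to 1.21; edgeR adjusted p = 0.871), and without noCRS replicate 3 it was 0.07. Cacna1b, the N-type pore (chromosome 2, 24603887 to 24763152), had 228, 57, 0 and 348 counts in CRS and 106, 57 and 0 counts in noCRS. Each group held a library with 0 counts, CRS replicate 3 and noCRS replicate 3, where the floor allows up to 0.0990 and 0.0924 CPM. Cacna1b averaged 4.43 ± 4.25 CPM in CRS and 1.46 ± 1.32 CPM in noCRS, with CRS replicates 1 and 4 above every noCRS library, and its 95% interval on the log2 scale ran from -3.09 to 6.29 (edgeR adjusted p = 0.865).

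The L-type pores were uneven between libraries. Cacna1c (chromosome 6, 118587240 to 119196890) had 0.876, 21.2, 3.73 and 2.92 CPM in CRS, against 14.4, 7.71 and 8.53 CPM in noCRS. CRS replicates 1, 3 and 4 lay below all 3 noCRS libraries, while CRS replicate 2 lay above them. The log2 fold change was -0.50 (95% interval -2.82 to 1.81; edgeR adjusted p = 0.913). Without CRS replicate 2 the CRS mean was 2.51 CPM, in place of 7.19 CPM, and the log2 fold change -2.04 (adjusted p = 0.305). Cacna1d (chromosome 14, 30039939 to 30491455) showed a similar spread, with 0.272, 11.9, 6.74 and 4.33 CPM in CRS and 8.59, 1.41 and 14.5 CPM in noCRS. Both L-type genes were highest in replicate 2 and lowest in replicate 1 among the CRS libraries. The Cacna1d log2 fold change was -0.49 (95% interval -3.15 to 2.16; edgeR adjusted p = 0.927), and without noCRS replicate 3 it was 0.22.

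Divided by exon length, the levels of the pore genes were set beside each other within a library. That length joins all deposited exons and need not be that of the transcripts, so the shares are not of transcript numbers. Cacna1e made up 50.1%, 38.7%, 51.2% and 45.8% of the summed CPM per kilobase (kb) of the 5 pore genes in CRS replicates 1 to 4, against 14.2%, 9.71% and 18.9% in noCRS replicates 1 to 3. On this scale it was the leading pore gene in every CRS library, while Cacna1c led in noCRS replicate 1 and Cacna1a in noCRS replicates 2 and 3. Cacna1a averaged 15.7 ± 6.47% in CRS and 30.3 ± 19.8% in noCRS. The L-type genes averaged 9.98 ± 11.5% for Cacna1c and 12.5 ± 9.62% for Cacna1d in CRS, against 24.0 ± 10.8% and 22.6 ± 13.9% in noCRS. The sum itself was 2.36 to 3.61 CPM per kb in CRS and 1.43 to 3.03 CPM per kb in noCRS, so the pore total overlapped between groups where the Cacna1e share did not. These shares restate the levels above and carry no test of their own.

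**Figure D3:**
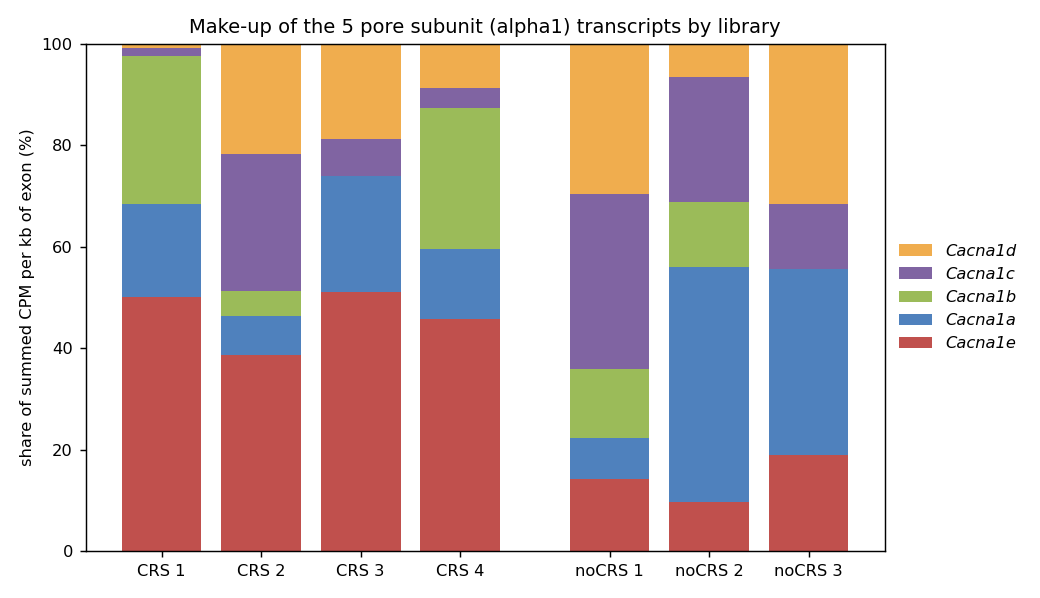
Share (%) of each pore gene in the summed CPM per kb of the 5 pore genes (vertical axis), for each CRS library (left) and each noCRS library (right). Cacna1e, at the bottom of each bar, holds 38.7% to 51.2% in CRS and 9.71% to 18.9% in noCRS.

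The alpha2delta genes were led by Cacna2d1 and Cacna2d3 in both groups. Cacna2d1, which encodes the main gabapentin target (chromosome 5, 15934691 to 16374511), had 47.7, 31.9, 47.9 and 73.8 CPM in CRS, against 33.2, 19.5 and 21.7 CPM in noCRS. CRS replicates 1, 3 and 4 were above all noCRS libraries, and CRS replicate 2 lay just below noCRS replicate 1. The log2 fold change was 1.02 ± 0.35 (SE; 95% interval 0.21 to 1.83), with an unadjusted p of 0.0191 and an edgeR adjusted p of 0.217. Over the other settings its adjusted p ran from 0.0672 to 0.485. Cacna2d3 (chromosome 14, 28904943 to 29721864) measured 21.1, 70.8, 39.9 and 21.4 CPM in CRS and 21.2, 30.8 and 66.4 CPM in noCRS. The groups covered nearly the same range, each with 1 library above 60 CPM, and the log2 fold change was -0.04 (95% interval -1.29 to 1.20; edgeR adjusted p = 0.991). Cacna2d2 (chromosome 9, 107399612 to 107529343) was scarce, at 27 to 63 counts in CRS and 144, 48 and 1 counts in noCRS, or 1.34 ± 0.46 and 1.68 ± 1.73 CPM (edgeR adjusted p = 0.964).

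Both beta genes had positive fold changes short of the threshold. Cacnb4 (chromosome 2, 52428320 to 52676831) was the most abundant of the 10 genes, with 70.03, 90.8, 105 and 80.8 CPM in CRS, against 43.8, 38.3 and 81.6 CPM in noCRS. CRS replicates 2 and 3 were above every noCRS library, and noCRS replicate 3 lay among the CRS values. The log2 fold change was 0.67 ± 0.30 (SE; 95% interval -0.02 to 1.36; edgeR adjusted p = 0.385). An uncharacterised gene, A430018G15Rik, shares 16.0% of the Cacnb4 exon length, and the share of Cacnb4 counts that falls there is not known. Cacnb3, which encodes the partner of many neuronal L-type and N-type channels (chromosome 15, 98630840 to 98644529), had 16.2, 7.39, 20.9 and 16.7 CPM in CRS, against 8.78, 2.05 and 8.87 CPM in noCRS. CRS replicate 2 lay within the noCRS range and the other CRS libraries above it. Its log2 fold change was 1.22 ± 0.68 (SE; 95% interval -0.33 to 2.77; edgeR adjusted p = 0.529).

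**Figure D4:**
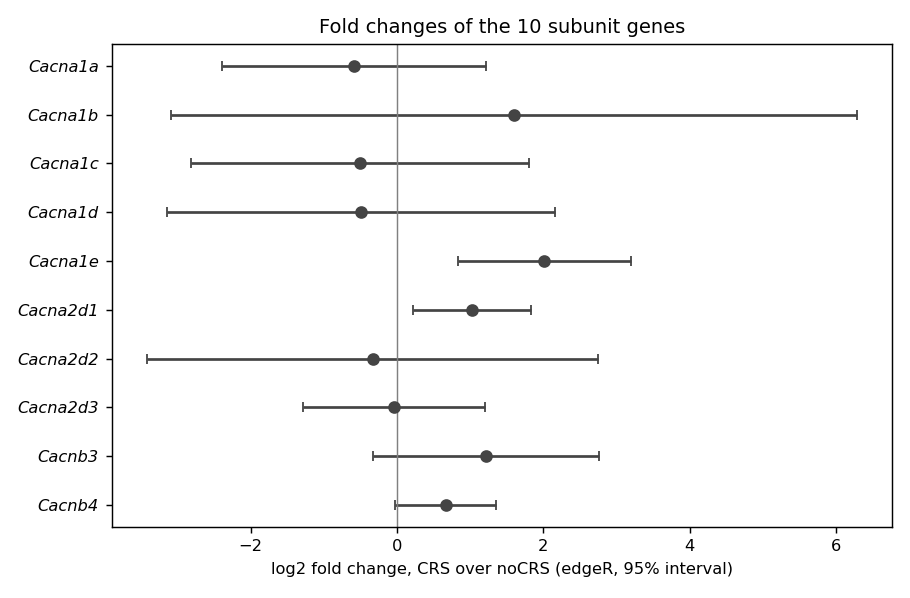
edgeR log2 fold change, CRS over noCRS (horizontal axis), with its 95% interval for each of the 10 subunit genes (rows). The intervals of Cacna1e (0.84 to 3.19) and Cacna2d1 (0.21 to 1.83) lie above 0 before adjustment for the number of genes tested, and the other 8 span 0.

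Per kb of exon, the order of levels in CRS was Cacnb4 (9.67 ± 1.67 CPM per kb), Cacna2d3 (4.40 ± 2.68), Cacna2d1 (4.05 ± 1.40), Cacnb3 (3.81 ± 1.41) and Cacna1e (1.33 ± 0.15), followed by Cacna1b, Cacna1a, Cacna1d, Cacna1c and Cacna2d2 at 0.446 down to 0.168 CPM per kb. In CRS, Cacnb4 stood above Cacna2d3, Cacnb3 above Cacna1e and Cacna1e above Cacna1b in 4 of 4 libraries with no overlap of their mean ± SD ranges, and all other neighbours in the order overlapped. In noCRS the order began Cacnb4 (6.09 ± 2.63 CPM per kb), Cacna2d3 (4.53 ± 2.73), Cacna2d1 (1.995 ± 0.592) and Cacnb3 (1.64 ± 0.98), and Cacna1e came after the other pore genes except Cacna1b, at 0.328 ± 0.223 CPM per kb. Every pair of neighbours in noCRS overlapped. Summed CPM per kb was thus higher for the auxiliary subunit genes than for the pore genes in both groups. The length used joins all deposited exons of a gene and need not be that of its transcripts, so numbers of transcripts were not compared. The pair of beta genes summed to 11.9 to 16.9 CPM per kb in CRS and 4.78 to 11.3 CPM per kb in noCRS, and the alpha2delta genes to 6.51 to 10.8 CPM per kb in CRS and 5.29 to 9.37 CPM per kb in noCRS. The beta sums overlapped on total counts alone, at 11.1 to 15.9 CPM per kb in CRS and 5.19 to 12.05 CPM per kb in noCRS, a scaling of the sums chosen after seeing the data. Within noCRS, replicate 3 was highest for 6 of the 10 genes and replicate 2 lowest for 6.

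Of 10 further genes of voltage-gated calcium channels 5 were tested, and edgeR, DESeq2 and limma-voom each called 0, with 0 at an unadjusted p below 0.05 in edgeR. Their median log2 fold change was -0.04. Cacna2d4, an alpha2delta gene best known from retina, had 84, 0, 0 and 97 counts in CRS and 393, 142 and 1512 counts in noCRS. Its groups did not overlap, with CRS lower (1.27 ± 1.46 CPM in CRS and 20.2 ± 23.0 CPM in noCRS), as was so for 1202 of the 17833 tested genes. However, noCRS replicate 3 held most of the noCRS counts and the edgeR adjusted p was 0.389. Cacnb1 measured 16.3 ± 4.18 CPM in CRS and 16.9 ± 7.38 CPM in noCRS (adjusted p = 0.985), and Cacnb2 5.77 ± 3.54 CPM in CRS and 1.74 ± 1.74 CPM in noCRS (adjusted p = 0.620). The T-type pores, which open at lower voltage, measured 5.41 ± 4.18 CPM in CRS and 2.71 ± 1.59 CPM in noCRS for Cacna1g, and 1.76 ± 3.34 CPM in CRS and 1.81 ± 0.76 CPM in noCRS for Cacna1h (edgeR adjusted p = 0.823 and 0.998). For Cacna1h, 217 of the CRS counts were in replicate 2. Cacna1f, Cacna1s, Cacna1i and Cacng1 had all their counts in a single CRS library each (1, 21, 56 and 51 counts), and Cacng6 had 0 counts in all 7 libraries.

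Genes whose products meet these channels included members that rose in CRS, where 2.07% of all tested genes did. The partner and modulator lists were chosen with earlier results of these data known, so their counts beside that share are no test of an excess. Of 22 listed partners at the presynaptic release site 21 were tested, 3 rose and 0 fell, with a median log2 fold change of 0.78. Besides Snap25 and Syt1, a SNARE protein and a calcium sensor of vesicle fusion, the third was Erc2, an active zone scaffold, at 29.6, 24.3, 30.5 and 27.3 CPM in CRS, against 5.19, 3.18 and 0.924 CPM in noCRS. The Erc2 groups lay far apart, with a log2 fold change of 3.17 ± 0.63 (SE; edgeR adjusted p = 0.0434), yet the call was lost without any single library (adjusted p up to 0.156). Snap25 and Syt1 had log2 fold changes of 4.12 ± 0.33 and 5.34 ± 0.55 (SE; edgeR adjusted p = 0.00127 and 0.00394). Both are also in the list of genes shared by all neurons (3031 to 4291 CPM in CRS and 464.5 to 537 CPM in noCRS). Most of that sum in CRS was Snap25 itself, so the sum is no separate measure beside Snap25 and Syt1.

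Of 20 listed partners of L-type signalling 19 were tested, 5 rose and 0 fell, with a median log2 fold change of 1.105. Among them was Calm2, which encodes a calcium sensor bound to the channel's tail (7077 ± 2048 CPM in CRS and 1726 ± 56.3 CPM in noCRS). The calcineurin genes Ppp3ca (420 ± 71.1 CPM in CRS and 133 ± 27.3 CPM in noCRS) and Ppp3r1 (615 ± 161 CPM in CRS and 149 ± 33.6 CPM in noCRS) rose, as did the protein kinase A catalytic gene Prkacb (221 ± 52.8 CPM in CRS and 54.9 ± 7.84 CPM in noCRS). The edgeR adjusted p of the 5 ran from 0.00574 to 0.00928. Kcnn2, a calcium-activated potassium channel gene named after its values were seen, measured 9.47 ± 5.16 CPM in CRS and 47.7 ± 13.9 CPM in noCRS, with no overlap. Its log2 fold change was -2.33 ± 0.56 (SE; edgeR adjusted p = 0.0783), and it was called lower by DESeq2 (adjusted p = 0.000791) and limma-voom (adjusted p = 0.0311). Of the Ppp3r1 exon length 14.3% is shared with Wdr92.

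Of 16 listed modulators 13 were tested, 1 rose and 0 fell, and the median log2 fold change was 1.28. The riser was Gem, a small GTPase of the RGK family that binds beta subunits and suppresses high-voltage calcium currents. Gem had 163, 129, 160 and 257 CPM in CRS, against 46.6, 32.7 and 52.4 CPM in noCRS. Every CRS library was above every noCRS library, with a log2 fold change of 2.01 ± 0.29 (SE; edgeR adjusted p = 0.0130), a call lost without noCRS replicate 1 or 2 (adjusted p up to 0.0623). Its relatives Rem2 (33.2 ± 7.44 CPM in CRS and 12.3 ± 11.4 CPM in noCRS) and Rrad (19.3 ± 8.67 CPM in CRS and 7.24 ± 4.44 CPM in noCRS), named after their values were seen, did not pass (edgeR adjusted p = 0.764 and 0.380).

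**Figure D5:**
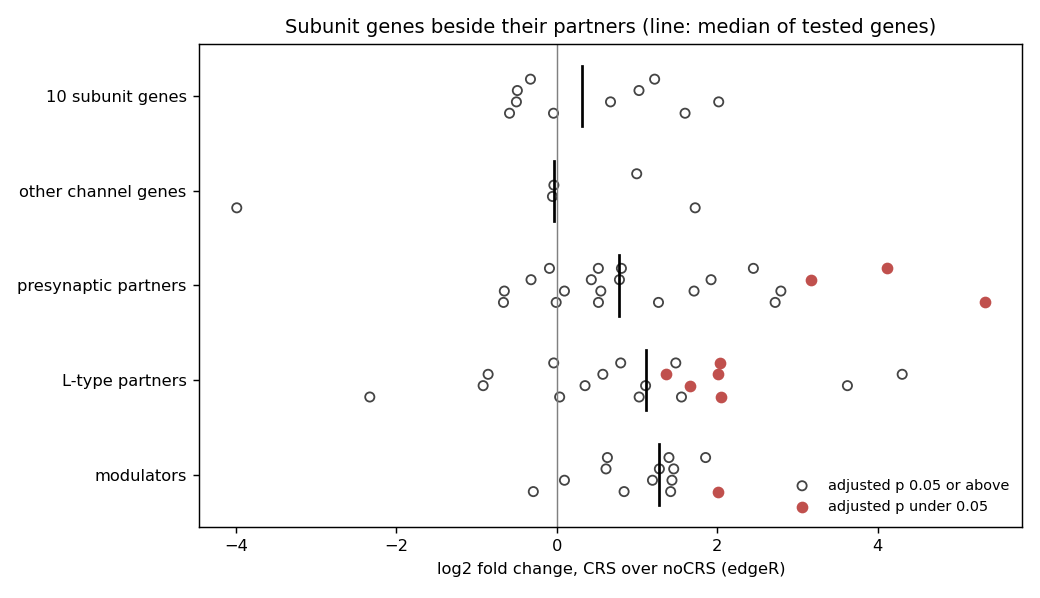
edgeR log2 fold change, CRS over noCRS (horizontal axis), of every tested gene in the subunit list and 4 related lists (rows), with red points past an adjusted p of 0.05 and a black line at each list's median. Red points appear in the presynaptic (3), L-type partner (5) and modulator (1) lists, all to the right of 0. The 10 subunit genes hold none, where edgeR called 2.3% of all tested genes, and have a median of 0.31.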

How the data were processed

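Raw counts per gene, whole numbers, were deposited for the 7 libraries with exon coordinates and lengths. FastQC, HISAT, HISAT2, featureCounts and DESeq2 are named, without versions, per the submitters' processing notes, with the build GRCm38. The count columns are named like STAR output per the file headers, so the aligner was not settled. Per the labels' protocols, libraries came from a transposase kit. Strand use and the handling of multiply aligned reads are not given in the sources used here, so reads of overlapping genes cannot be separated.

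CRS was compared with noCRS by the quasi-likelihood test of edgeR 4.0.16 (R 4.3.3) on the whole table, with TMM factors, filterByExpr and no covariate. P-values were adjusted by the Benjamini-Hochberg method over the 17833 genes that passed the filter, and called at 0.05. The SE is the log2 fold change divided by the root of the F statistic, and intervals are at 95%. CPM are TMM-normalised. Levels were compared between genes only as CPM per kb of deposited exon length. The fit was tested on simulated data. Alternatives were DESeq2 1.42.0, limma-voom (limma 3.58.1) with quality weights, 3 scalings, 2 filters, a threshold of 0.1, each library left out and a replicate block. The floor of 3 counts reflects counting error only, since the reads carry no molecular identifiers and may be copies.

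The 10 genes and all lists were chosen with earlier results of these data known. Every subunit gene was named, as was every tested gene of the remaining channel genes and every called gene of the partner and modulator lists, apart from 1 that is not reported here but is included in the counts.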

Additional observations from a re-analysis of the deposited data

Results flagged for a closer look

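Cacna1c in CRS had a library far from the rest: replicate 2 at 21.2 CPM, with the others between 0.876 and 3.73 CPM. The gap to its nearest neighbour was 0.860 of the group's range, past Dixon's 95% critical value for 4 samples. Cacna1h in CRS was flagged in the same way, with 217 counts in replicate 2 against 0, 0 and 11 in the others and a gap of 0.958 of the range. The 4 CRS libraries were examined in this way for 24 genes, and these 2 were flagged, where chance flags about 1 such group in 20. The noCRS group of 3 is too small for this rule.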

How the results depend on the processing

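edgeR's count of 410 genes was 1631 with DESeq2, 639 with limma-voom, 714 at a threshold of 0.1, 12 with the replicate block and 142 to 352 with a library left out. Of the 10 subunit genes DESeq2 and limma-voom called 1, and edgeR 0 in every setting. Presynaptic partners called were 7 with DESeq2, 5 at a threshold of 0.1, 0 with the block and 2 to 3 with a library left out. L-type partners called were 9 with DESeq2 (8 higher and 1 lower, Kcnn2), 0 with the block and 4 to 6 with a library left out, and modulators called were 5 with DESeq2, 2 at a threshold of 0.1, 0 with the block and 0 to 1 with a library left out. The cause of these differences was not tested. Same-numbered libraries did not deviate together (r = 0.0153, -0.00319 and 0.0228), and not every library correlated best with its own number. Whether libraries of the same number were collected together cannot be told from so few values. With the block the Cacna1e log2 fold change was 2.17 (edgeR adjusted p = 0.349). Log2 fold changes that turned sign, in no case with a call, were those of Cacna1a (-1.04 to 0.0692 with a library left out), Cacna1d (-1.13 to 0.22), Cacna2d2 (-0.90 to 0.78; 1.0 with limma-voom, 0.52 with the block), Cacna2d3 (-0.54 to 0.56; 0.15 with the block), Cacna1g (-0.265 with limma-voom), Cacna1h (-4.19 to 0.38) and Cacnb1 (-0.26 to 0.36; 0.0923 with limma-voom). The mean Cacna1e share of the pore gene sum was 61.1% in CRS and 21.2% in noCRS without division by length, a setting chosen after seeing the data. With a biological coefficient of variation of 0.919, the scarce genes were poorly resolved: the 95% interval of the log2 fold change ran from -3.41 to 2.75 for Cacna2d2.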
